A study of Rattus norvegicus with 4 samples.

Results

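The 9 genes described here encode proteins of the tight junction and the junctional adhesion molecules (JAMs): Jam2, Jam3, F11r, Cldn1, Cldn3, Cldn7, Cldn11, Ocln and Tjp1. They were found as the probe sets whose platform annotation gives exactly 1 of these symbols, which took in 18 of the 31042 probe sets of the array table. The gene group was chosen by function with the higher Jam2 signals of the GDNF samples already known, so the treatment differences of the members are a description and were not used as evidence for anything else. Whole ovaries of 4-day-old rats were cultured for 2 days on floating filters in medium with insulin and transferrin. The control ovaries received no factor, and the treated ovaries received GDNF (glial cell line-derived neurotrophic factor), which signals through the Ret receptor. Each of the 4 samples, 2 control and 2 GDNF, was RNA from 6 to 10 pooled ovaries from different animals, on 1 Affymetrix array. Strain and GDNF dose are not given in the sources used here. The culture text attached to the GDNF samples repeats the wording for untreated ovaries, so the groups rest on the titles and descriptions. Separate litters or culture days are not named for the replicates, so errors and p-values here cover the spread between these samples alone, part of which may be technical.

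Tight junctions seal the space between neighbouring epithelial or endothelial cells. Claudins and occludin are membrane proteins that build the strands of the junction, JAMs are immunoglobulin-type adhesion proteins at its edge, and Tjp1 (ZO-1) is the scaffold that ties these proteins to actin. The ovary holds several tissues with such contacts, among them the surface epithelium, the vessels and the granulosa cells around each oocyte. JAMs are also found on germ cells, endothelium and leukocytes.

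The stretch just upstream of the start site can be read for 8 of the 9 genes in the RefSeq table of assembly GRCr8. It was searched for CACCTG, the core of the E-box bound by the epithelial repressors Snai1, Zeb1 and Zeb2, on both strands, so that CAGGTG also counted. The 250 bases upstream of the start held at least 1 match in 15.9% of all 33469 windows of that length, and in 4 of the 8 member windows (F11r, Cldn3, Cldn7 and Ocln). Cldn7 had 4 matches, a number that 0.0299% of the windows reach or pass, and Ocln had 2, which 1.84% reach or pass. Jam2 had none. The windows of Jam2 (chr11:37317310-37317559, plus strand), Ocln (chr2:33441199-33441448, minus strand) and Cldn7 (chr10:55188420-55188669, plus strand) are shown because Jam2 had the largest difference among the tested members and the other pair held the most matches. Each is written 5′ to 3′ along its gene, with the matches in capitals.
Jam2: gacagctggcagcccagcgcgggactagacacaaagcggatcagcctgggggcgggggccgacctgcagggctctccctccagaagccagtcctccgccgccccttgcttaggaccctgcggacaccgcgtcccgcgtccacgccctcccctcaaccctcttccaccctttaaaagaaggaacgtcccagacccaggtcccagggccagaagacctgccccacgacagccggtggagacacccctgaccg
Ocln: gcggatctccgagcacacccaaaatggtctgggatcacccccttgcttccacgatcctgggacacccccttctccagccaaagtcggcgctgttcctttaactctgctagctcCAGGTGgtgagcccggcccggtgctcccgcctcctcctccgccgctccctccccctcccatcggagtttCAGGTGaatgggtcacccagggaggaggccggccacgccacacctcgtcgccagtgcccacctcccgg
Cldn7: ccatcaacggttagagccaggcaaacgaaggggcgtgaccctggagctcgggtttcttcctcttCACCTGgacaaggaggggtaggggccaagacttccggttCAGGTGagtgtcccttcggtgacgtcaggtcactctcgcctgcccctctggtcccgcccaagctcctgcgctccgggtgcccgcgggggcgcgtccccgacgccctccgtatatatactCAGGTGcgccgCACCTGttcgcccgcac
The start sites used for Jam2 and Ocln lie 1273 and 1009 bases inside the span that RefSeq gives the gene, so part of these windows may belong to another transcript. The Tjp1 window lies 179658 bases inside its gene and is not shown. A second motif, AACCGGTT, the site of the grainyhead factors Grhl1 and Grhl3, is its own reverse complement and cannot overlap a CACCTG match. It was in none of the 8 member windows and in 0.146% of all windows. A match is a run of letters and not a measured binding site.

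The arrays give 1 signal per probe set, on a linear intensity scale that the authors had scaled to a common level on each array. Median signals were 36.7 to 41.1 on the 4 arrays. Signals were compared as log2(signal + 1), which understates the change of dim genes, for the 18625 probe sets left by a filter at the 40th percentile of the mean (equal to a signal of 21.4). Of the 18 member probe sets, 12 passed that filter, and they covered 8 of the 9 genes. Cldn7 did not pass. Signals of different probe sets cannot be ranked against each other, so each probe set is compared with itself across the arrays. The exception is the summed signal of a marker list, which follows its brightest probe sets most and does not measure the amount of a cell type. Ovarian markers were present on every array. The lowest signals were 545 for the oocyte factor Gdf9, 591 for the granulosa transcription factor Foxl2 and 137.5 for anti-Müllerian hormone (Amh). With 2 samples against 2, an exact permutation test of a single value cannot give a two-sided p below 0.333, so none is given.

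**Figure D1:**
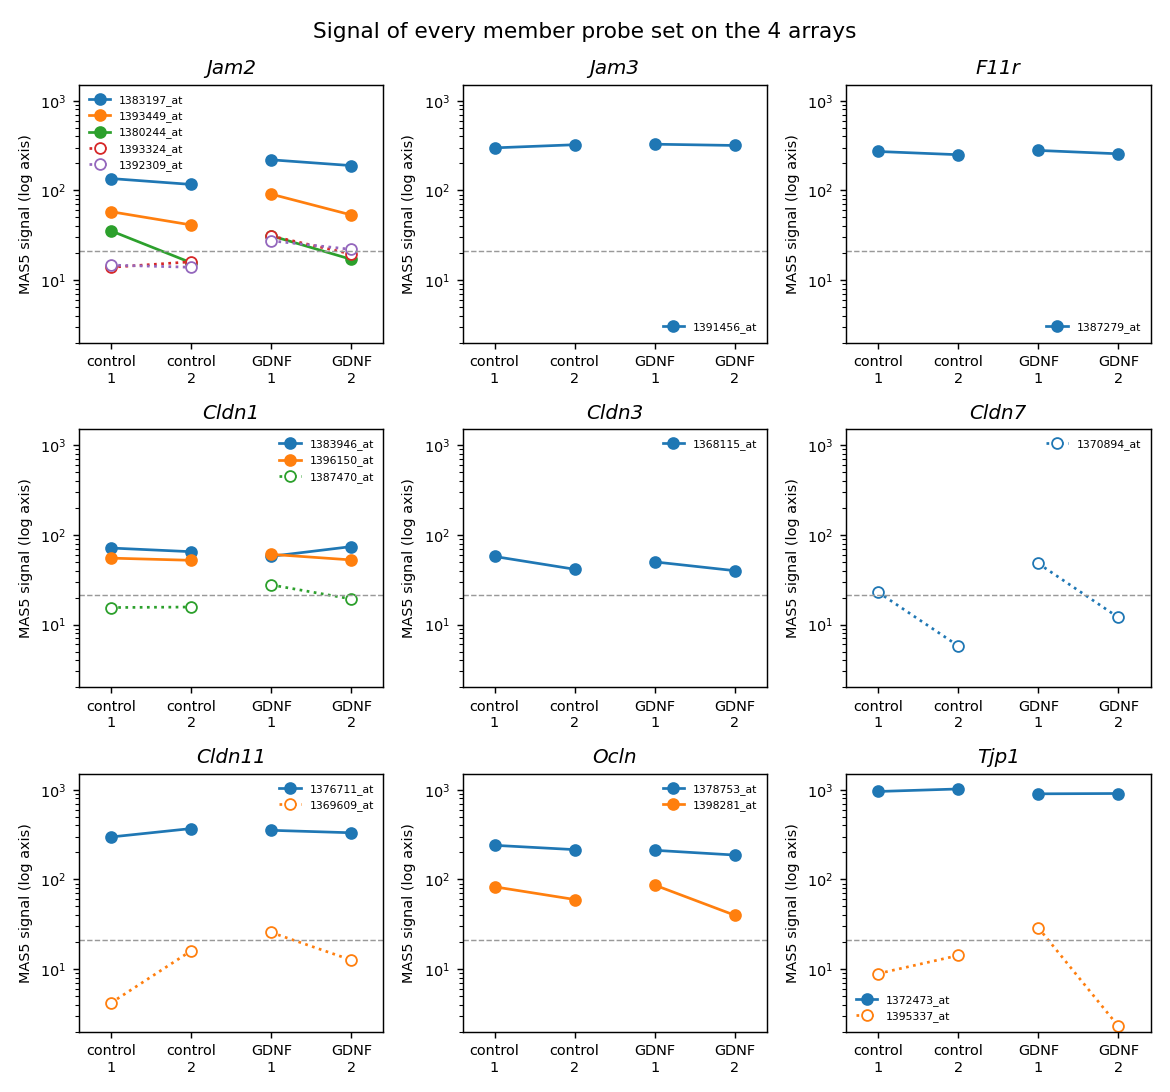
MAS5 signal (log axis) of all 18 probe sets of the 9 genes on each array, with the arrays of a group joined by a line. Filled points and solid lines are probe sets that passed the filter, open points and dotted lines those that did not, and the dashed line is a signal of 21.4. The probe set 1383197_at of Jam2 is above both control values on both GDNF arrays, while the values for Jam3, F11r and Cldn3 overlap between the groups.

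Jam2 (JAM-B), an adhesion protein of endothelial and germ cell contacts, was the member with the largest difference among those tested. In its brightest probe set (1383197_at) the signal was 135.6 in control replicate 1 and 116.6 in control replicate 2, against 219.3 in GDNF replicate 1 and 189.1 in GDNF replicate 2. Both GDNF arrays were above both control arrays. The means were 126 ± 13.4 in control and 204 ± 21.4 in GDNF samples (SD, n = 2 each), a fold of 1.61 and a log2 difference of 0.69 (SE 0.15, limma). The fold was 1.61 between the samples numbered 1 and 1.62 between those numbered 2. The labels do not pair the samples by number, and the closeness of these folds depends on that matching. With each array left out in turn the log2 difference ran from 0.58 to 0.80. Over all probe sets tested, 49 had a larger difference upward, and 0.424% were at least 1.5-fold higher with no overlap between the groups.

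The array carries another 4 probe sets for Jam2. In 1393449_at the signal was 57.9 and 41.2 without GDNF and 90.8 and 53.2 with it, so the lower GDNF value lay under the higher control value. The log2 difference there was 0.50 (SE 0.30), and it was 0.12 without GDNF replicate 1. Within each replicate number the GDNF sample was the higher, by a fold of 1.56 for number 1 and 1.28 for number 2. Here too the matching by number is not given by the labels. In 1380244_at the signal was 35.4 and 15.6 on the control arrays and 31.2 and 17 on the GDNF arrays, with overlapping groups and a log2 difference of -0.03 (SE 0.47). That value turned to 0.54 without control replicate 1. The remaining pair was below the filter. Probe set 1392309_at had 14.7 and 13.9 in the controls against 27.4 and 22 with GDNF, a log2 difference of 0.74, and 1393324_at had 13.9 and 16 against 31 and 19.5, a difference of 0.69. Neither of these overlapped between the groups. These 2 are not covered by the share of tested probe sets in which both GDNF arrays lay above the controls, 13.4%. The probe sets share the same 4 RNA samples and are not replicates of one another.

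Because whole ovaries were measured, more cells of a type and more RNA per cell cannot be told apart. The oocyte marker list also had higher means with GDNF, in 6 of 6 genes tested (5 of 6 without GDNF replicate 2), with a summed signal of 3983 and 4967 without GDNF and 5249 and 6654 with it. In the endothelial list 1 of 8 tested genes had a higher mean. This was 2 of 8 after either rescaling of the arrays, and 2 or 3 of 8 with a single sample left out. The summed signal of 10 endothelial genes was 1538 and 1570 on the control arrays and 1436 and 1382 on the GDNF arrays. The granulosa list had a higher mean in 6 of 8 tested genes. That count was 5 of 8 after quantile normalization, without control replicate 2 and without GDNF replicate 1. The granulosa sum was 4181 and 3667 in the controls against 4435 and 4019 with GDNF. Over all probe sets tested, 48.5% had a higher mean with GDNF. Both GDNF arrays were above both controls in 4 of 6 oocyte, 4 of 8 granulosa and 0 of 8 endothelial genes (13.4% of all). Both were below in 0 of 6, 2 of 8 and 2 of 8 (16.6% of all). In control replicate 1, Zp2 and Zp3 gave 1478 and 1665 of the oocyte sum, and Kdr gave 903 of the endothelial sum. No marker of these lists was at 0 on all arrays. The part of the oocyte, endothelial and granulosa markers in the Jam2 difference was not tested.

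The genes whose centred log2 signals over the 4 arrays lay nearest to the brightest Jam2 probe set were sought by Euclidean distance, in log2 units. Tox, a nuclear HMG-box protein, lay at 0.063, with 22.6 and 19.5 without GDNF and 39.1 and 31.8 with it. Plbd1, a phospholipase B-like protein, followed at 0.12, with 86 and 82.4 on the control arrays and 151.7 and 127.5 on the GDNF arrays. Amh, the hormone of granulosa cells in growing follicles, lay at 0.12, with 153.5 and 137.5 in the controls against 233.1 and 204.3 with GDNF. Elavl1, an RNA-binding protein, and Smc4, a condensin subunit, were at 0.14 and 0.16, but other probe sets of both were unlike it. The brightest Elavl1 probe set had a log2 difference of 0.11 and that of Smc4 -0.01. The control means of Tox (21.05) and of the near Elavl1 probe set (21.1) lay under the filter signal of 21.4. Both passed the filter through their GDNF values. With only 4 arrays many genes can lie near a given pattern, so these distances are a description.

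The other JAM genes had overlapping groups. Jam3 (JAM-C), which pairs with JAM-B between cells, had a signal of 298.1 and 323.1 without GDNF and 327.5 and 317.1 with it. This gave a log2 difference of 0.05 (SE 0.12) that was -0.0038 without control replicate 1. F11r (JAM-A), the JAM of epithelial cells, leukocytes and platelets, had 271.7 and 250.1 on the control arrays and 279.2 and 255.9 on the GDNF arrays. Its log2 difference was 0.04 (SE 0.12), which turned to -0.03 without GDNF replicate 1. The differences between these 3 genes were not tested.

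Of the claudins, Cldn1, a barrier-forming claudin, has 3 probe sets. The brightest (1383946_at) had 71.4 and 65 in the controls against 57.8 and 74.1 with GDNF, a log2 difference of -0.06 (SE 0.20) with overlap. In 1396150_at the values were 55.1 and 52.1 against 60.7 and 52.6, a difference of 0.08 (SE 0.20). The third (1387470_at), below the filter, had 15.5 and 15.7 against 27.7 and 19.3. Of the 3, only that dim probe set separated the groups. Cldn3, another barrier claudin, had 57.5 and 41.4 without GDNF and 50 and 39.9 with it, with a log2 difference of -0.12 (SE 0.25) that turned to 0.11 without control replicate 1. Cldn11, the claudin of Sertoli cells and of myelin, had 297.3 and 369 on the control arrays and 352.8 and 331.1 on the GDNF arrays in 1376711_at. Both GDNF values lay between the control values, at a log2 difference of 0.05 (SE 0.14). Its other probe set (1369609_at) was below the filter, with 4.2 and 16 against 25.6 and 12.6. Cldn7, an epithelial claudin, had 23.0 and 5.8 in the controls against 48.0 and 12 with GDNF, below the filter and with overlapping groups. In Cldn7 the GDNF sample was the higher by a fold of 2.04 for number 1 and 1.91 for number 2, a matching not given by the labels.

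Ocln and Tjp1 had lower means with GDNF, by amounts close to their errors. Ocln (occludin) had 240 and 214.8 without GDNF and 211.2 and 186.9 with it in 1378753_at. Both GDNF values were below both control values, by a narrow gap, with means of 227 ± 17.8 and 199 ± 17.2 (SD, n = 2 each) and a log2 difference of -0.19 (SE 0.14). In its other probe set (1398281_at) the values were 82.7 and 59.7 against 86.4 and 39.8, and the difference of -0.26 (SE 0.36) turned to 0.29 without GDNF replicate 2. Tjp1 had 956 and 1019.7 on the control arrays and 900.2 and 907.5 on the GDNF arrays in 1372473_at, again without overlap, with a log2 difference of -0.13 (SE 0.10). It ran from -0.17 to -0.08 with each array left out in turn. The dim Tjp1 probe set (1395337_at) had 8.9 and 14.2 against 28.9 and 2.3 and carries no usable direction.

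Markers of the surface epithelium, a tissue with tight junctions, also had lower means with GDNF, in 10 of 11 genes tested, 5 of them without overlap. Without control replicate 1 the number with a lower mean was 7 of 11. Of the 5 without overlap, Lgals7 had 28.8 and 27.9 in the controls against 19.2 and 21.6 with GDNF. Its GDNF mean of 20.4 lay under the filter signal, so Lgals7 passed the filter through its control values. Over all probe sets tested, 48.5% had a higher mean and 16.6% had both GDNF arrays below both controls. The summed signal of the 11 markers was 9799 and 8573 in the controls against 8099 and 7562 with GDNF, and none was at 0. In control replicate 1, Krt19 alone gave 4091 of that sum. The mesothelial keratin Krt7 had 480.7 and 482.6 without GDNF and 377.4 and 357.1 with it. Krt8 had 784.3 and 568.1 against 665.6 and 488.7, with overlapping groups. Krt18 also overlapped, with 299.6 and 209.5 against 293.2 and 159.1. Cdh1 was the marker with a higher mean, by a log2 difference of 0.16. The epithelial adhesion molecule Epcam had 423.3 and 429.0 against 432.0 and 399.4, with overlapping groups. The part of these markers in the Ocln and Tjp1 values was not tested.

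**Figure D2:**
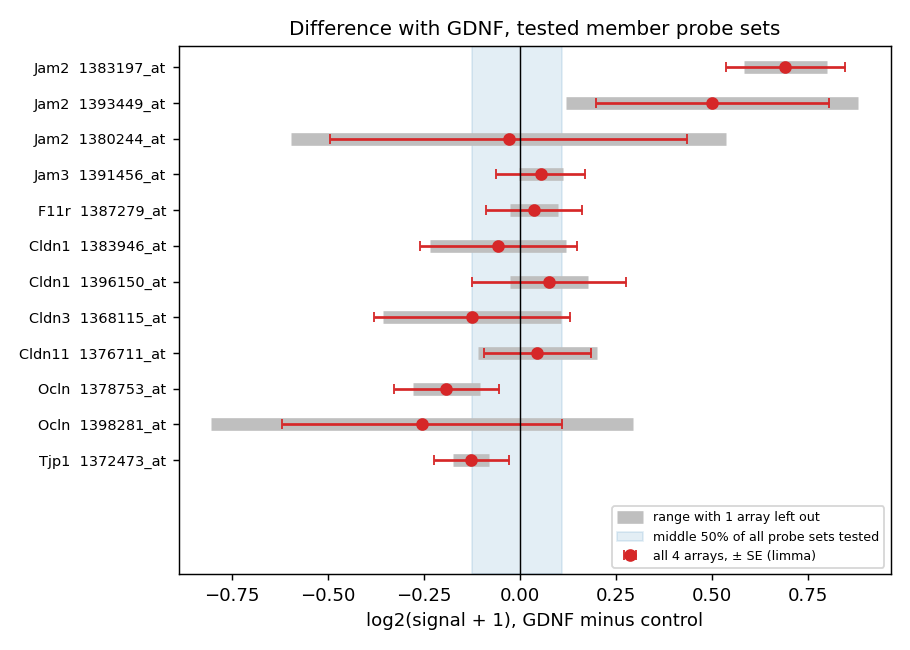
Log2(signal + 1) difference, GDNF minus control, of the 12 tested member probe sets (points, with the limma SE), the range with 1 array left out (grey bars) and the middle 50% of all probe sets tested, -0.12 to 0.11 (blue band). The brightest Jam2 probe set stays at 0.58 or more with any array left out, whereas 8 of the 12 grey bars reach across 0.

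Among the 12 tested member probe sets, none passed limma's adjusted threshold of 0.05, and neither did any other of the 18625 (0% of all). The unadjusted p was under 0.05 for 1 of the 12, against 2.73% of all probe sets. GDNF values were both above the control values in 1 of the 12 (13.4% of all) and both below in 2 of the 12 (16.6% of all), so that the groups did not overlap in 3 of the 12 (30% of all). A higher mean with GDNF was found in 6 of the 12 and in 48.5% of all. By the brightest tested probe set of each gene, 4 genes had a higher mean (Jam2, Jam3, F11r and Cldn11) and 4 a lower one. That split was also 4 to 4 after quantile normalization and after median centring. These counts use the contrast known when the genes were grouped, and nothing is read from them.

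The samples of a group differed from each other in a way that the choice of genes did not use. In 8 of the 12 tested probe sets the replicate 1 sample had the higher signal in both groups, against 30.9% of all probe sets, and in 1 (Tjp1, 1372473_at) the replicate 2 sample did, against 28.6% of all. In 6 of the 12 both replicate 1 arrays were above both replicate 2 arrays (22.6% of all), and in none were they below (20.9% of all). These were 2 probe sets of Jam2 (1393449_at and 1380244_at) and 1 each of F11r, Cldn1, Cldn3 and Ocln. The 12 hold several probe sets of the same gene. By the brightest tested probe set of each gene, replicate 1 was the higher in both groups for 4 of 8 genes (Jam2, F11r, Cldn3 and Ocln), and both replicate 1 arrays were above both replicate 2 arrays for 2 of 8 (F11r and Cldn3). For Cldn3 the replicate 2 sample was lower than replicate 1 by a log2 of -0.46 in control and -0.32 in GDNF samples, a larger gap than its treatment difference. The dimmer Ocln probe set had -0.46 and -1.10, and the brighter one -0.16 and -0.18. Cldn7, below the filter, had -1.82 and -1.91. Over all probe sets tested the median size of such a gap was 0.15 in control and 0.21 in GDNF samples.

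This order between the replicate numbers depended in part on how arrays are scaled. After median centring, which moved the median gap of all probe sets by 0.16 in the GDNF group, the replicate 1 sample was the higher in both groups for 7 of the 12 (18% of all), since F11r dropped out. Both replicate 1 arrays were then above both replicate 2 arrays in 3 of the 12 (12.8% of all). After quantile normalization the numbers were 8 (27.2% of all) and 5 (19.4% of all). Leukocyte markers had the same order, with the replicate 1 sample higher in both groups for 8 of 8 genes as deposited and 5 of 8 after median centring. Their summed signal was 1119 in control replicate 1 and 920 in control replicate 2, against 1154 in GDNF replicate 1 and 880 in GDNF replicate 2, and none was at 0. Surface epithelium markers had it in 5 of 11 genes, granulosa cell markers in 6 of 8 and endothelial markers in 1 of 8. Oocyte markers had it in 0 of 6, with the opposite order in 5, and the other junction genes in 13 of 53, with the opposite order in 18. The labels do not say what the replicate number marks, and the part of these cells in the order was not tested.

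**Figure D3:**
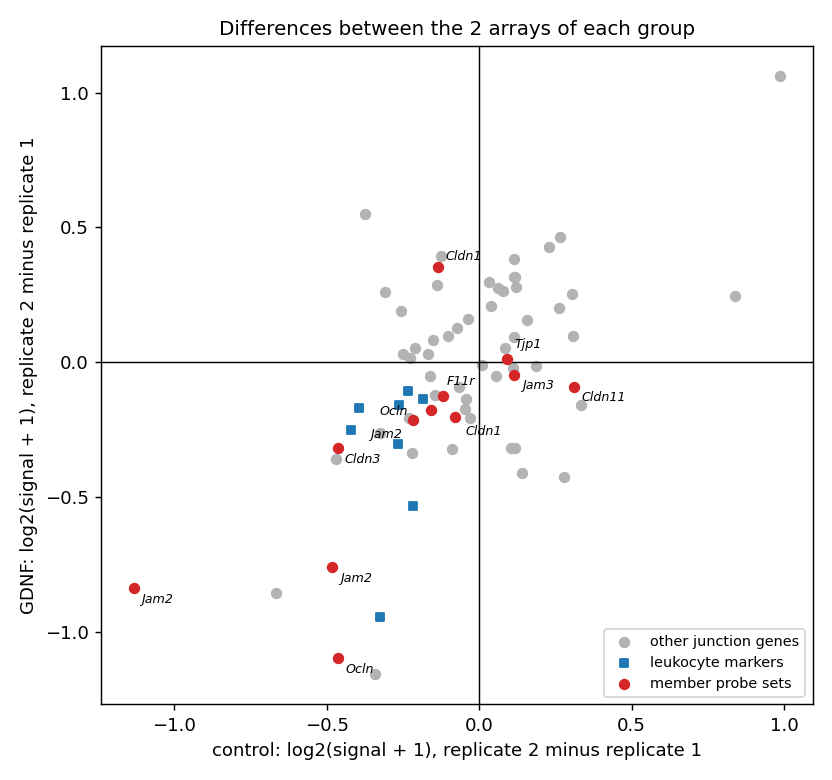
Log2(signal + 1) of replicate 2 minus replicate 1 in the control group (horizontal) and in the GDNF group (vertical), for the 12 tested member probe sets (red), other junction genes (grey) and leukocyte markers (blue squares). The lower left field, where replicate 1 is higher in both groups, holds 8 of the 12 red points and 8 of the 8 blue ones. Jam2 1380244_at, among these red points, passed the filter through its replicate 1 values.

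Other genes of cell junctions were taken from 7 lists of 90 genes that are not members, of which 67 could be matched to the array and 53 passed the signal filter. None of the 53 passed limma's adjusted threshold, and 2 had an unadjusted p under 0.05 (3.77%, against 2.73% of all probe sets). The mean with GDNF was higher in 24 and lower in 29, with a median log2 difference of -0.04, against -0.0067 over all probe sets tested. The groups did not overlap in 9 genes upward and 9 downward, 17% each, against 13.4% and 16.6% of all probe sets.

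By role, the other claudins tested were 3 of 19 listed, and all had a higher mean with GDNF. Cldn5, the endothelial claudin, had 120.7 and 149.7 on the control arrays and 168.0 and 180.0 on the GDNF arrays, a log2 difference of 0.37 (SE 0.16) with no overlap. Cldn12 had 0.24 (SE 0.14), also with no overlap, and Cldn4 had 0.18 (SE 0.27). Another 9 claudins were below the filter. Among immunoglobulin proteins related to the JAMs, 2 of 4 tested were higher: Igsf5 (JAM4) with 0.41 (SE 0.43) and Igsf11 with 0.17 (SE 0.11). Without GDNF replicate 1 the count was 1 of 4 and Igsf5 had -0.17, and without control replicate 2 or GDNF replicate 2 it was 3 of 4. The Igsf5 signal was 20.9 and 16.3 in the controls against 37.6 and 16.3 with GDNF, with overlapping groups. Only GDNF replicate 1 was above the filter signal of 21.4, and Igsf5 passed the filter through that value. Clmp (-0.08, SE 0.13) and the endothelial Esam (-0.04, SE 0.20) also had overlapping groups.

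The angulins, which mark the corners where 3 cells meet, went both ways. Ildr2 had 712.4 and 652.5 in the controls against 415.1 and 545.7 with GDNF, the largest difference downward among the 53 genes (-0.52, SE 0.15), with no overlap. It was -0.32 without GDNF replicate 1 and -0.71 without GDNF replicate 2. Lsr, also an angulin, had 250.1 and 269.0 against 234.8 and 188.2 (-0.30, SE 0.15), and Ildr1 had 0.20 (SE 0.23). Of 21 junction scaffold and polarity genes, 15 had a lower mean, 6 of them without overlap, and 6 a higher one, 2 without overlap. The lower ones were 14 of 21 after either rescaling and 12 of 21 without GDNF replicate 1. The lowest were the polarity proteins Pard6b (-0.31, SE 0.14) and Pard6a (-0.27, SE 0.23). The highest were Sympk, an RNA-processing protein also found at tight junctions (0.38, SE 0.15), and the apical polarity protein Crb3 (0.37, SE 0.17). Sympk had 108.7 and 101.2 without GDNF and 132.4 and 141.8 with it.

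Adherens junction genes had a lower mean in 8 of 11, and in 6 of 11 without GDNF replicate 2. Plakoglobin (Jup) was the lowest (-0.35, SE 0.33), with 145.3 and 91.1 on the control arrays and 121.1 and 66.5 on the GDNF arrays, so that its replicate numbers stood further apart than its treatments. P-cadherin (Cdh3) followed with -0.22 (SE 0.20), while E-cadherin (Cdh1) had 0.16 (SE 0.17) and Nectin3 0.099 (SE 0.11), all with overlapping groups. Of the integrin subunits that bind JAMs, 3 of 5 had a higher mean. Itgb3 had 0.22 (SE 0.34) and Itgal 0.15 (SE 0.16), Itgb2 had -0.13 (SE 0.29) and Itgav -0.0086 (SE 0.15). Regulators of epithelial genes had a higher mean in 6 of 6 (48.5% of all probe sets), with 3 not overlapping (13.4% of all). The count was 4 of 6 without control replicate 1 or without GDNF replicate 2. The list puts the repressors Snai1, Zeb1 and Zeb2 beside Grhl1, Grhl3 and Esrp1, so the count has no single meaning for epithelial genes. The 3 not overlapping were Esrp1, Zeb2 and Grhl1. Esrp1, an epithelial splicing factor, had 637.9 and 690.9 in the controls against 723.2 and 943.9 with GDNF (0.32, SE 0.14). Zeb2 had 0.13 (SE 0.17), Grhl1 0.065 (SE 0.17) and Grhl3 0.014 (SE 0.24). The E-box repressor Snai1 had 0.13 (SE 0.19) and Zeb1 0.066 (SE 0.13), both with overlapping groups and named after their values were seen.

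**Figure D4:**
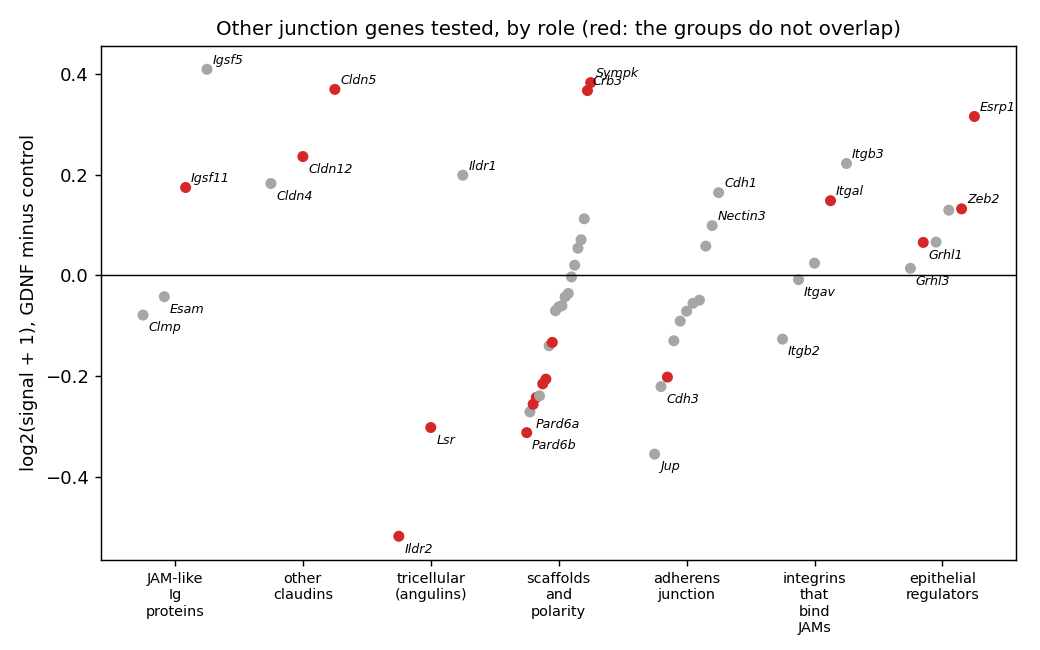
Log2(signal + 1) difference, GDNF minus control, of the 53 other junction genes tested, by role, with genes whose groups do not overlap in red and up to 2 highest and 2 lowest of each role named. Ildr2 is lowest at -0.52, and the scaffold and polarity genes lie mostly below 0, 15 of 21.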

How the data were processed

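RNA of 2 control and 2 GDNF pools of cultured rat ovaries was hybridised to 4 Affymetrix arrays. The authors deposited 1 linear intensity per probe set. MAS5 is the tool in the submitters' processing notes, without a version. Its mismatch subtraction makes low signals noisy. Its scaling gave all arrays a trimmed mean of 125, which hides any change in total RNA. Detection calls were not used here.

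Of 31099 probe sets, 57 Affymetrix controls were left out. GEO's platform annotation gave 20826 probe sets 1 symbol, 436 several and 9780 none. Entrez identifiers of 20758 matched RefSeq (GRCr8) and 0 symbols changed. On log2(signal + 1), limma 3.58.1 under R 4.3.3 (lmFit, eBayes with trend) compared the groups two-sided, with Benjamini-Hochberg adjustment over 18625 probe sets and 2 residual degrees of freedom. The fit was tested on simulated data. Members, gene lists and tests were chosen with earlier results of these data known. Named were all members, up to 2 highest and 2 lowest of each other list, the 5 genes nearest to Jam2, and markers. For a gene of a list the probe set with the highest mean was used. Alternatives were a pseudocount of 16, other filters, quantile normalization, median centring, no trend, the replicate number as a block, every probe set of a listed gene, and each sample left out.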

Additional observations from a re-analysis of the deposited data

How the results depend on the processing

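The number of arrays, 2 in each group, limits the precision of these values, as does the low signal over background of the dim probe sets. With the replicate number as a block, limma called 8 of 18625 probe sets, against 0 with group as the only term. None of the 8 was a member (0 of 12) or another junction gene (0 of 53). The oocyte marker Gdf9 was among the 8 (adjusted p 0.047, limma with the block). That fit has 1 residual degree of freedom, which leaves its p-values to the modelled variance for the most part. The labels do not say that the number marks a shared litter or day. The gaps between replicates correlated across probe sets at r = 0.32 between the groups, a hint from the data and not from the design. No probe set was called under the other alternatives, and the count with an unadjusted p under 0.05, 508 as reported, ran from 142 without control replicate 1 to 1927 without GDNF replicate 1.

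The number of member genes with a higher mean, 4 of 8, was between 3 and 5 when single samples were omitted, and was 4 under the other settings (4 of the 6 genes left by the filter at the 60th percentile). The median of the other junction genes, -0.04, lay between -0.04 and 0.02 when single samples were omitted and turned upward without GDNF replicate 1. It was -0.02 after either rescaling and -0.0086 over all 83 tested probe sets of these genes. The brightest Jam2 probe set, the brighter Ocln probe set and Tjp1 kept their direction in 11 of 11 settings, and Jam2 1393449_at in 10 of 10. Most of these settings could not turn a direction. The filters, the trend and the block leave each difference as it is. Where the groups do not overlap, as in those of Jam2, Ocln and Tjp1 with 11 settings, another pseudocount or an omitted sample cannot reverse it. Only the rescalings could have turned these. Jam3, F11r, Cldn1, Cldn3, Cldn11, Jam2 1380244_at and Ocln 1398281_at turned in 1 or 2 settings each, all of them with a sample left out. Of the genes counted with replicate 1 higher in both groups, 4 of 8, median centring left 3, and a pseudocount of 16 or quantile normalization left 4.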
